A study of Drosophila melanogaster with 2 samples.

Results

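Of the 7488 peaks in the optimal ChIP-seq list of tagged Sox102F, made from 2 biological replicates, 1520 (20.3%, 95% Wilson interval 19.4 to 21.2%) lay between genes. A peak was counted as intergenic when its summit was over 500 bp from every transcription start site (TSS) of a protein-coding gene and inside no annotated gene of any biotype, transposons included. The rule used position alone, with no signal value. The other peaks were 2053 within 500 bp of a protein-coding TSS (promoter peaks), 3722 elsewhere inside protein-coding genes (gene body peaks) and 193 inside non-coding genes or transposons only. The chromatin came from whole Drosophila melanogaster embryos at 12 to 14 h, from a transgenic line that stably carries Sox102F fused at its C-terminus to green fluorescent protein, and was recovered with an antibody against that tag. Both samples belonged to 1 group, numbered replicates 2 and 3, so that no treated or mutant embryo stood against them, and an untagged line was not analysed here. Whether the line keeps an untagged Sox102F, and in which cells the fusion is made, was not stated in the labels. Signal values are the authors' score of each peak, the deposited lists hold no read counts, and depth was therefore unknown. Intervals cover counting error of peaks, gaps or genes only.

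Sox proteins bind DNA through an HMG box, which enters the minor groove and bends the helix, most often over the letters ACAAT. Sox102F is the fly member of the SoxD group, whose mammalian members lack a recognised activation domain, and it has been studied in fly neurons and heart. Sequence between genes can hold enhancers, insulators and unannotated transcripts, and around genes of development it is often long.

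The sequence at the summit is shown for 8 intergenic peaks, because they are among the highest of the list or the highest of a gap with many peaks. Each line runs from 50 bp before to 50 bp after the summit, on the plus strand of the RefSeq dm6 assembly, with ACAAT or its reverse complement ATTGT in capitals.
tara peak (chr3R:16222434-16222534): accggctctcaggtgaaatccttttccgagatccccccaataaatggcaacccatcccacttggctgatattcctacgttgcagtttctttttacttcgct
CG31668 peak (chr2L:2202352-2202452): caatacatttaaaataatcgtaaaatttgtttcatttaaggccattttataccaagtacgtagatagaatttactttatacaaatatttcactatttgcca
NijA gap peak (chr3L:10752720-10752820): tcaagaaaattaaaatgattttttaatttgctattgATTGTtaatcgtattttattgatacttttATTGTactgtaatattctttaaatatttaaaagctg
chinmo proximal peak (chr2L:1649414-1649514): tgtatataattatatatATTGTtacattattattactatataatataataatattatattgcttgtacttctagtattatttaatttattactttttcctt
chinmo distal peak (chr2L:1638739-1638839): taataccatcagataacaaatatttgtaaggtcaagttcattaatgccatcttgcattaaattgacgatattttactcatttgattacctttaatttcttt
foxo peak (chr3R:14053555-14053655): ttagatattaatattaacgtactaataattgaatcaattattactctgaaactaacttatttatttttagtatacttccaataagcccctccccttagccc
CG13898 gap peak (chr3L:781293-781393): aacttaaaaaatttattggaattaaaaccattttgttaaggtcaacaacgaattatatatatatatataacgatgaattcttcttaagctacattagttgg
vvl gap peak (chr3L:6853590-6853690): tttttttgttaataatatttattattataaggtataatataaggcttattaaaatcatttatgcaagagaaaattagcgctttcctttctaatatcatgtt
Of these 8 sequences, those of the NijA gap and the chinmo proximal peak held the core word, with 2 and 1 copies. The chinmo proximal peak had 12.9% G and C and the tara peak 47.5%.

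Chromosome 4, which carries Sox102F itself, had 3 intergenic peaks, named here because they were few. The summit at 424823 had a signal value of 836, with 273 in replicate 2 and 564 in replicate 3. It lay 1244 bp from the nearest gene, a non-coding one, 12134 bp from lgs, a cofactor of Wnt signalling, and 29218 bp from dati. The other two lay in the gap between Asator and zfh2, which encodes a zinc finger and homeodomain protein. Their signal values were 217 at 489552 (70.2 in replicate 2 and 148 in replicate 3) and 467 at 497893 (184 and 290). No intergenic peak lay in the gaps that border Sox102F, which offer 4.68 kb of allowed sequence, while the gene had a promoter peak. Of the 1018 protein-coding genes that border 2 to 5 kb of allowed sequence, 20.5% had an intergenic peak in a bordering gap.

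The intergenic peaks were spread over all 6 arms used, at an average of 0.459 per 10 kb of the sequence in which the rule allows a peak (33.1 Mb of 133.9 Mb, 24.7%). The density was 0.566 on 2L (354 peaks, 95% Poisson interval 0.508 to 0.628) and 0.527 on 3L (430 peaks, 0.479 to 0.580). It was 0.446 on 3R (327 peaks), 0.403 on X (193 peaks) and 0.329 on 2R (213 peaks, 0.287 to 0.377). The intervals of 2L and 2R did not overlap. Intergenic peaks made up 26.0% of the optimal peaks of 3L and 13.1% of those of X, where allowed sequence was 29.0% and 20.4% of the arm.

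Intergenic peaks had lower signal values than promoter peaks and were close to gene body peaks. The median was 178 (quartiles 129 and 288, range 97.2 to 3913), against 266 at promoters and 190 in gene bodies. The ratio of the intergenic to the promoter median was 0.668 in the optimal list, 0.680 at the same loci in the list of replicate 2 and 0.640 in that of replicate 3. Against gene bodies the ratios were 0.937, 0.945 and 0.940 in the same order of lists. Width moved with it, with a median of 269 bp for intergenic peaks, 351 bp for promoter peaks and 287 bp for gene body peaks. Signal values are used within a list only, since no scaling for depth is stated.

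The share of intergenic peaks was smallest at the top of the ranking. They were 189 of the 1498 highest optimal peaks (12.6%, 95% Wilson interval 11.03 to 14.4%) and 354 of the 1497 lowest (23.6%, 21.6 to 25.9%). In the list of both replicates pooled, from which the optimal list was taken, 18.6% of the 5000 highest peaks and 30.8% of the 5000 lowest were intergenic. Of the 500 highest optimal peaks, 54 were intergenic, or 3.55% of the intergenic peaks, while 13.2% of the promoter peaks were among those 500.

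**Figure D1:**
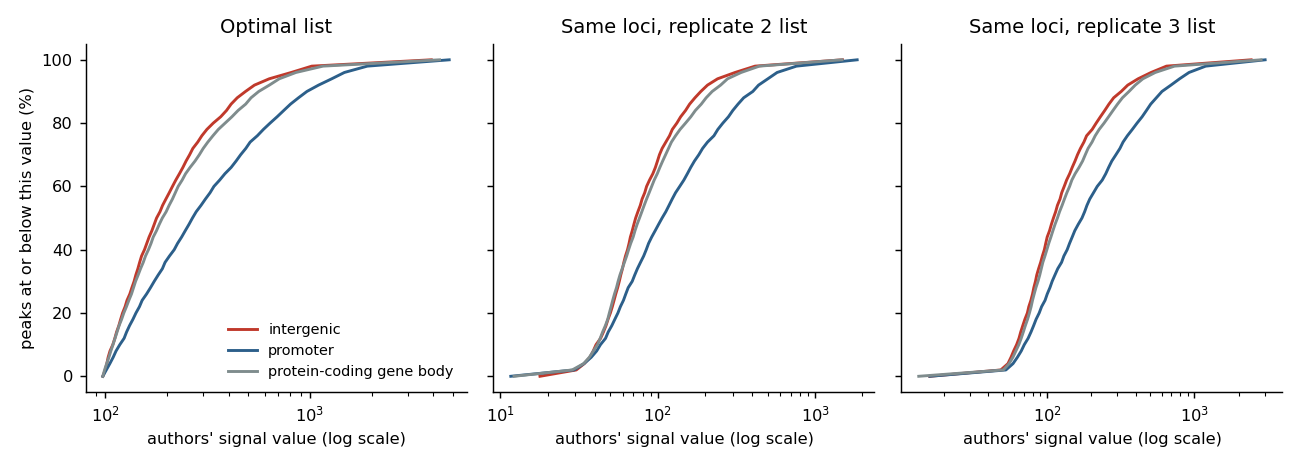
Cumulative share of peaks (y axis, %) at or below a signal value (x axis, log scale) for intergenic, promoter and protein-coding gene body peaks, in the optimal list and at the same loci in each replicate list. In all 3 panels the intergenic curve lies next to that of gene bodies and left of that of promoters, with medians of 178, 266 (promoter) and 190 (gene body) in the optimal list.

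The intergenic peaks were found again in each replicate. The summit lay in peaks of both replicates for 1466 of 1520 (96.4%, 95% Wilson interval 95.4 to 97.3%), against 94.4% of all optimal peaks, 89.6% of promoter peaks and 95.9% of gene body peaks. Replicate 2 held 98.2% of the intergenic summits and 90.6% of the promoter summits. Replicate 3 held 98.3% of the intergenic and 98.98% of the promoter summits, so the classes stood apart in replicate 2 and not in replicate 3. No intergenic summit was missing from both lists. The replicate lists were also used to make the optimal list, and their overlap with it is not independent evidence.

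The 12 highest intergenic peaks had signal values from 1652 to 3913. The highest, on 2R at 13035338, had a signal value of 3913, with 1491 in replicate 2 and 2433 in replicate 3. It lay 27427 bp from Su(z)2 and 9357 bp from CG13323. Su(z)2 and its neighbour Psc encode related Polycomb group proteins, which keep genes silent. A peak with 2185 (821 in replicate 2 and 1369 in replicate 3) lay 4223 bp from Psc and 150 bp from a non-coding gene.

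The second highest, with 2620 (919 in replicate 2 and 1707 in replicate 3), lay on 3R at 16222484. It was 911 bp from a non-coding gene and 3167 bp from tara, a trithorax group gene with a part in the cell cycle. Its interval of 753 bp was wider than that of the 3913 peak (460 bp). The third, with 2502 (967 and 1526), lay on 2L at 2202402, 1319 bp from CG31668 and 4490 bp from COX7AL2. A peak of 1821 (696 and 1134) lay between blw, which encodes a subunit of the mitochondrial ATP synthase, and CycB, a mitotic cyclin, at 785 and 556 bp. All of these were in peaks of both replicates.

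The remaining peaks of the 12 highest ranged from 1765 to 1652 in signal value. They included a pair near chinmo, a regulator of the temporal identity of neuroblasts, at 1649464 (1748, 1794 bp from the gene) and 1638789 (1685, 12469 bp from it and 8143 bp from a non-coding gene). A peak at 14053605 on 3R (1702) lay 3340 bp from foxo, the forkhead factor downstream of insulin signalling. A peak at 21520378 on 3R (1652) lay 550 bp from sp3 and 7564 bp from the homeobox gene C15. The peak at 29214448 on 3R (1765) lay 114 bp from a non-coding gene and 5724 bp from eEF1gamma, a translation elongation factor.

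The threshold of 500 bp fell within a continuous range of positions. The nearest peaks inside the rule were 502, 502, 504, 504 and 504 bp from a TSS, with signal values of 146, 344, 325, 1245 and 174. The nearest peaks outside it that were in no gene were at 500, 500, 496, 494 and 494 bp, with 1100, 104, 675, 381 and 191.

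Intergenic peaks lay closer to genes than the sequence open to them. The median distance to the nearest gene edge was 2044 bp (quartiles 803 and 4840 bp), while the median over every allowed base was 3961 bp. To the nearest protein-coding gene the medians were 3340 bp for peaks and 5928 bp for bases, and to the nearest protein-coding TSS 4690 and 7973 bp. With protein-coding genes alone as the borders of gaps, the median distance of the peaks to such a gene was 3440 bp.

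The density of peaks was lower at larger distances. It was 0.761 per 10 kb (226 peaks, 95% Poisson interval 0.665 to 0.867) within 500 bp of a gene edge, 0.520 (403 peaks, 0.470 to 0.573) from 2 to 5 kb and 0.0568 (31 peaks, 0.0386 to 0.0807) beyond 20 kb. Transposons moved with it: beyond 20 kb, 0.430 Mb of the 5.46 Mb of allowed sequence lay in gaps with no transposon annotation, and within 500 bp 2.47 Mb of 2.97 Mb did. In gaps with no transposon annotation, a split made after the values were seen, the density was 0.837 within 500 bp (207 peaks, 0.727 to 0.960), 0.604 from 2 to 5 kb and 0.418 beyond 20 kb (18 peaks, 0.248 to 0.661). Bases at arm ends, which lie in no gap, enter the densities over all allowed sequence and not those without transposons. The part of transposons in the gradient was not tested, and the labels do not say how reads in repeats were placed. Signal was lower at a distance as well, with a median of 192 within 500 bp of a gene edge and 122 beyond 20 kb.

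The 5′ ends of genes were nearest slightly more often than by sequence. For 795 peaks (52.3%, 95% Wilson interval 49.8 to 54.8%) the nearest gene end was a 5′ end, which holds for 48.3% of the allowed bases. The density was 0.497 per 10 kb where a 5′ end was nearest (0.463 to 0.533) and 0.424 where a 3′ end was (0.393 to 0.456).

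Most of the peaks farthest from any gene were in 1 gap. The farthest lay 39257 bp from CG43335, on 3R at 15596211 between AOX4 and CG43335, with a signal value of 109 (48.1 in replicate 2 and 62.1 in replicate 3). Of the 10 farthest, 6 lay in the gap between NijA and CG43245, at 30509 to 36865 bp from the nearest gene, with signal values of 112 to 612. The others lay beside vvl (101), between kek1 and ACXC (107), and between the cell death genes grim and rpr (111).

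**Figure D2:**
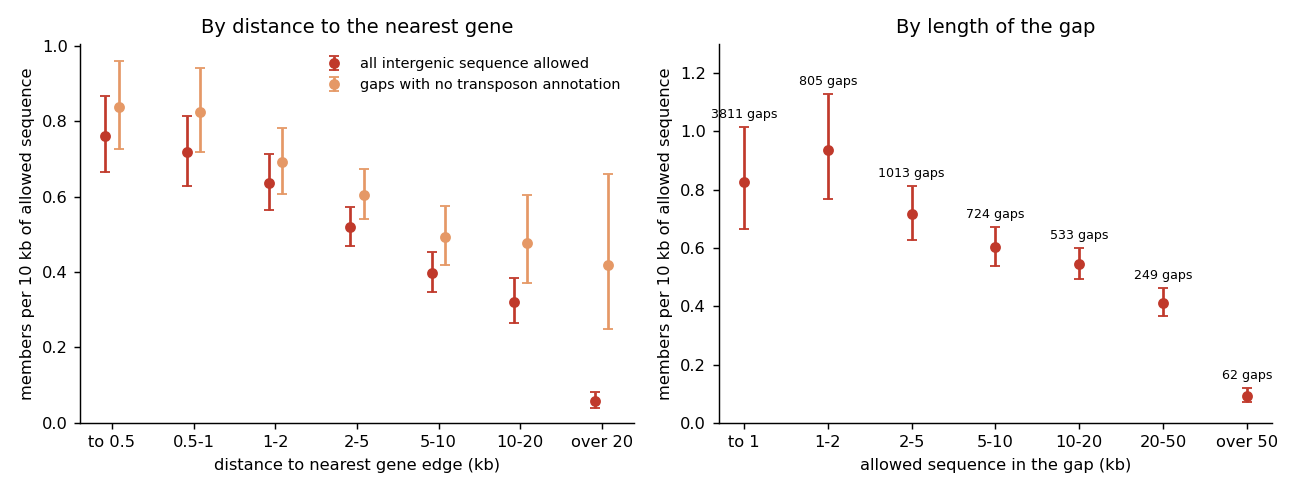
Intergenic peaks per 10 kb of allowed sequence (y axis) by distance to the nearest gene edge (left, kb) and by the allowed sequence in the gap (right, kb, with the number of gaps), with 95% Poisson intervals. The density decreases from 0.761 next to genes to 0.0568 beyond 20 kb in all allowed sequence and less steeply, to 0.418, in gaps without a transposon annotation.

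Most of the stretches between genes held no intergenic peak. Of 7197 gaps with allowed sequence, 903 held an intergenic peak, or 12.5% of gaps. Of these, 592 held 1 peak, 311 held 2 or more and 145 held 3 or more. Those 145 gaps held 596 peaks, 39.2% of all intergenic peaks, and 37 gaps with 5 or more held 237. The lists without replicate 3 or without replicate 2 gave 907 and 867 gaps with a peak. Each is the 7488 highest peaks of the other replicate, so the number of peaks equals that of the optimal list by construction.

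The share of gaps with a peak was higher in longer gaps up to 50 kb and lower beyond, while the density was lower in long gaps than in short ones. A peak was found in 2.31% of the gaps with up to 1 kb of allowed sequence, in 26.7% of those with 5 to 10 kb and in 47.0% of those with 20 to 50 kb. Of the 62 gaps with over 50 kb, 13 held a peak (20.97%, 95% Wilson interval 12.7 to 32.6%). The density was 0.936 per 10 kb in gaps with 1 to 2 kb (110 peaks, 95% Poisson interval 0.769 to 1.13) and 0.413 in gaps with 20 to 50 kb (294 peaks, 0.367 to 0.463). In the gaps with over 50 kb it was 0.0922 (59 peaks, 0.0702 to 0.119). Of those 62 gaps, the 12 without a transposon annotation held 33 peaks in 0.850 Mb, and the 50 with transposons held 26 peaks in 5.55 Mb.

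The arrangement of the flanking genes went with the density. Gaps between divergent genes, into which both 5′ ends point, had 0.618 peaks per 10 kb (428 peaks, 95% Poisson interval 0.561 to 0.680). Tandem gaps had 0.461 (772 peaks, 0.429 to 0.494), and convergent gaps, between 2 gene ends, had 0.388 (320 peaks, 0.347 to 0.433). With a protein-coding gene on both sides the values were 0.649, 0.390 and 0.285. Transposons made up 6.01% of such divergent gaps, 9.51% of the tandem and 14.3% of the convergent ones. Gaps between 2 non-coding genes had 0.664 peaks per 10 kb (0.579 to 0.757), and those between 2 protein-coding genes 0.419 (0.387 to 0.452).

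The 3 gaps with most peaks were on 3L. Between tRNA:Ile-TAT-1-2 and CG13898 (3L, 770463 to 803426), 15 peaks were spread over 33.0 kb. Their signal values ranged from 113 to 983, with a median of 252, and all 15 lay in peaks of both replicates. The highest, at 781343, had 386 in replicate 2 and 602 in replicate 3. From hng3 to CG13898, the nearest protein-coding genes, 19 peaks lay within 47.9 kb, and hng3 also had a promoter peak.

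The gap from NijA, which encodes a ninjurin cell surface protein, to CG43245 (3L, 10696878 to 10771924) was 75.05 kb long and also held 15 peaks. All lay 36.9 to 72.9 kb from the NijA end, and no optimal peak was found in the rest of the gap. Signal values ranged from 112 to 1751, with a median of 414. The peak of 1751, at 10752770, had 673 in replicate 2 and 1081 in replicate 3. Neither gene had a promoter peak.

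Several gaps with 6 to 8 peaks lay beside well known regulators. The gap from Wnt4 to wg (2L, 7277172 to 7307158), which encode Wnt ligands, held 7 peaks, with signal values of 328, 159, 99.6, 148, 507, 127 and 102 in order from Wnt4. Of these, the peak of 328, at 7281616, had 57.8 in replicate 2 and 273 in replicate 3, while the peak of 507, at 7296109, had 219 and 278. The gap beside vvl, a POU domain factor of trachea and nervous system, held 8 peaks over 70.5 kb, with signal values from 101 to 675.

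The gap from Doc2 towards Doc1, T-box genes of the dorsal embryo and heart, held 6 peaks with signal values of 207, 639, 262, 150, 165 and 202 in order from Doc2. The gap of 42.0 kb beside salm, a spalt zinc finger gene, held 7 peaks from 102 to 317. A gap upstream of noc, a zinc finger gene, held 7 peaks from 104 to 504. That between dnc and Myc held 6 from 102 to 300, of which those of 300 and 143 shared an interval. Of these genes dnc had a promoter peak, while vvl, wg, Wnt4, salm, noc and Doc2 had none.

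Towards chinmo, 7 peaks lay in 20.9 kb between lncRNA:CR44603 and lncRNA:CR45695. Their signal values from left to right were 197, 379, 573, 167, 1685, 1160 and 296. Between RFeSP and chinmo as a whole, which are divergent, 11 intergenic peaks lay in 37.1 kb. From Ids, a lysosomal sulfatase gene, to sty, which encodes the Sprouty inhibitor of receptor tyrosine kinase signalling, 11 peaks lay in 21.1 kb, up to 819.

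Other stretches between protein-coding genes with many peaks were CG7320 to CheA75a (13 peaks in 48.4 kb), plh to corto (10 in 66.8 kb) and mtSSB to tara (9 in 20.4 kb). The X chromosome had 8 peaks between CG6414 and CG43689, in a gap of 46.0 kb between non-coding genes, where the highest signal value was 238. In the gap before CG6244, 30771 bp from comm, which sorts the Robo receptor in axons that cross the midline, 7 peaks ranged from 119 to 414. The peaks of 414 and 119 there had overlapping intervals and the same value of 255 in replicate 3.

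**Figure D3:**
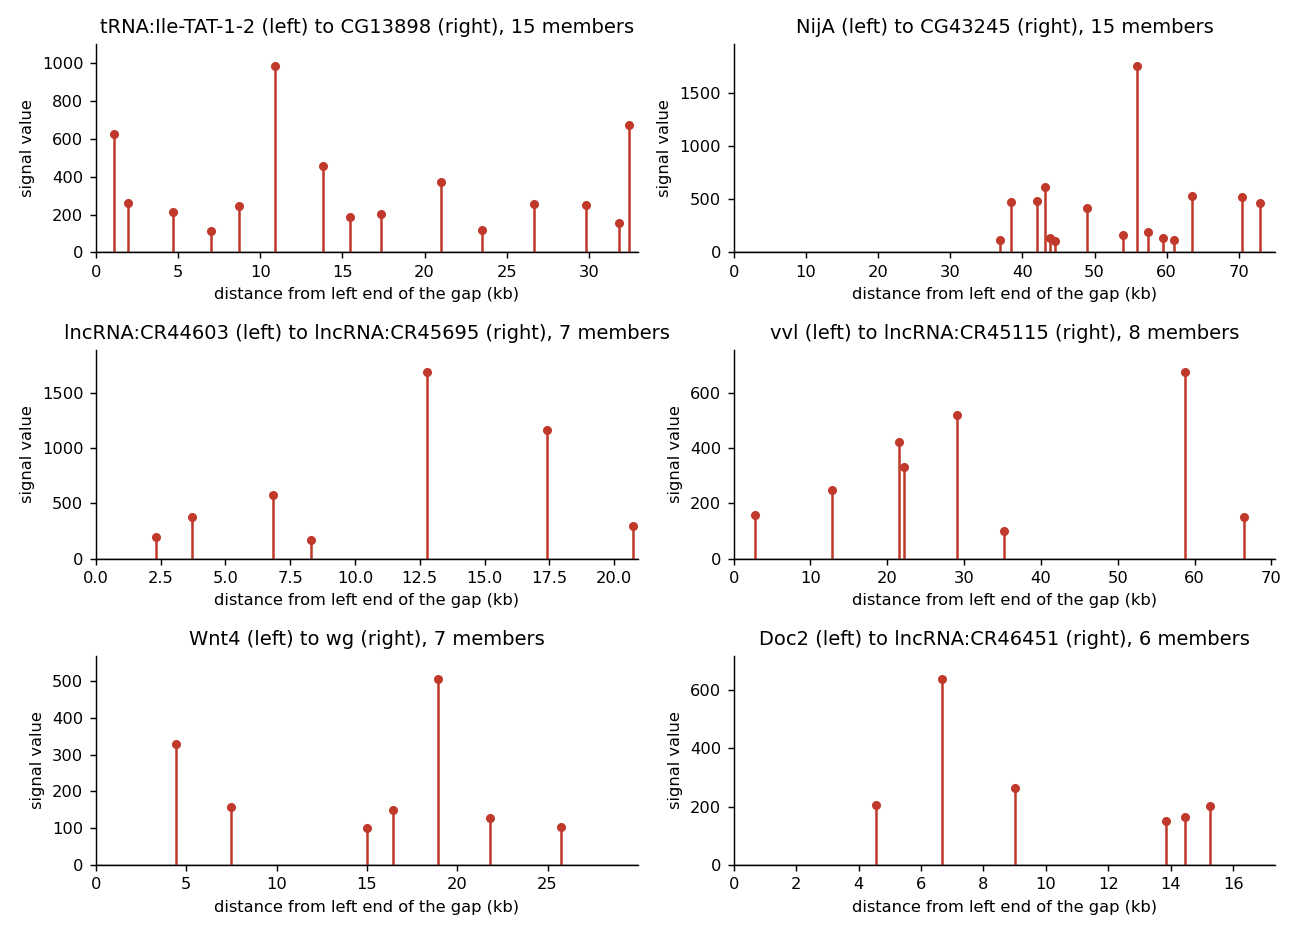
Intergenic peaks in 6 of the 15 gaps with most peaks, with the distance from the left end of the gap in kb (x axis) and the signal value in the optimal list (y axis, from 0, scaled to each gap). Peaks run over the whole gap next to CG13898, but only from 36.9 kb on in the NijA gap, and the highest values are 1751 there and 1685 in the gap towards chinmo.

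By density, gaps on 3L led again. Among gaps with at least 5 kb of allowed sequence and at least 3 peaks, a gap of 6.27 kb between CG13898 and Sf3b3 had 5 peaks, or 7.97 per 10 kb. The gap next to sty had 7.64, and that between Sema5c, a semaphorin, and CG17154 had 6.90. In the gap from robo2, an axon guidance receptor, to CG43401, 4 peaks ranged from 307 to 468 in signal value, and in that from COX7AL2 to CG31668 3 peaks ranged from 555 to 2502.

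Most intergenic peaks stood alone at a scale of 2 kb. The nearest other intergenic summit was at a median of 4174 bp (quartiles 1436 and 19160 bp), and 497 peaks (32.7%) had one within 2 kb. Joined at that distance, 1023 stood alone, 350 formed 175 pairs, and 147 formed clusters of 3 to 5. To the nearest optimal peak of any class the median was 2818 bp for intergenic peaks, 3185 bp for promoter peaks and 2240 bp for gene body peaks. Signal was higher in clusters, with a median of 172 for peaks alone, 199 in pairs and 219 in clusters of 3 or more. Among optimal peaks above the median signal, a shorter list by construction, 21.2% of the intergenic peaks had another within 2 kb.

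All 4 clusters of 5 peaks were on 3L. The tightest spanned 3006 bp upstream of CG7560, with signal values of 355, 570, 665, 978 and 879. Its peak of 978, at 11418386, had 601 in replicate 3, but the summit lay inside no peak of replicate 2, while the other 4 summits were in both. The interval of that peak overlapped that of the peak of 879, which had 379 in replicate 2. Another spanned 3492 bp between CG13898 and Sf3b3, with 245, 854, 153, 448 and 392.1, and 1 of 5564 bp reached across CG13898. Among the clusters of 4 was 1 of 1587 bp next to sty, with 464, 703, 120 and 819.

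A protein-coding gene was called when a gap on its border held an intergenic peak, and 1095 of the 7794 that border allowed sequence were called (14%). The share grows with the length of the bordering sequence, to 46.6% of the 507 genes with over 20 kb. Each list is therefore given beside all genes in the same classes of bordering length, called the same lengths below. Lengths can differ within a class, and transposon content was not matched. Gaps with no transposon annotation had 0.648 peaks per 10 kb, and gaps with over 20% of their length in transposons had 0.195. The 12 lists were chosen with earlier results of these data known, so shares beyond an interval describe these data and are not independent evidence. The list of forkhead, GATA, T-box and Sox genes, which encode regulators of early tissues, had 21 of 30 called (70.0%, 95% Wilson interval 52.1 to 83.3%), beside 29.6% for all genes of the same lengths. Without replicate 2 it had 24 called (80.0%, 62.7 to 90.5%, beside 28.4%) and without replicate 3 it had 18 (60.0%, 42.3 to 75.4%, beside 30.2%), shares computed after the data were seen. Signalling ligands had 12 of 25 (48.0%, 30.03 to 66.5%), beside 29.3%. The intervals count genes as independent, although neighbouring genes can share a gap, and the 12 called ligands shared 10 gaps and 19 peaks. Without replicate 2 the ligands had 12 again, beside 27.8%. Without replicate 3, however, they had 11 (44.0%, 26.7 to 62.9%), an interval that held the 29.7% of all genes of the same lengths.

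Homeobox genes had 24 of 65 (36.9%), beside 33.8%, and zinc finger and nuclear receptor genes 15 of 40 (37.5%), beside 30.5%. Axon guidance and cell adhesion genes had 24 of 89 (27.0%), beside 30.6%. Of the 8 Hox genes, 1 was called, which was Ubx (12.5%, beside 24.3%). The bHLH regulators had 3 of 16 (18.8%, beside 18.7%). Chemoreceptor and odorant-binding genes had 28 of 160 (17.5%, beside 18.6%), and cuticle genes 11 of 106 (10.4%, beside 12.3%). Housekeeping genes, which border little sequence, had 3 of 48 called for ribosomal proteins (6.25%, beside 10.9%), 1 of 19 for mitochondrial ribosomal proteins (5.26%, beside 5.46%) and 1 of 18 for proteasome subunits (5.56%, beside 12.6%). For every list except the forkhead, GATA, T-box and Sox genes and the signalling ligands, the share at the same lengths lay within the interval of the list in the optimal list of peaks.

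The 21 called genes of the first list shared 26 gaps and 53 peaks, since some of them are neighbours. Among the forkhead genes, slp1 and slp2, pair-rule regulators of the segments, had peaks of up to 1148. The gap beside foxo reached 1702, and bin, a regulator of visceral muscle, had 3 peaks up to 663. FoxL1 had 4 peaks up to 280, fkh, a regulator of gut and salivary gland, 4 up to 163, and croc 3 up to 298.

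Of the T-box genes, Doc2 had 7 peaks, and mid and H15, which act in heart and segments, had 4 and 3, up to 261 and 372. Of the Sox genes, the SoxB members Sox21a and Sox21b had 3 and 1, with the peak of 554 counted for both. D and SoxN, regulators of the early nervous system, had 4 and 3, up to 221 and 151. The SoxE gene Sox100B and the SoxF gene Sox15 had 1 each, with 146 and 245. Of the GATA genes, srp, a regulator of blood and fat body, had 2 peaks up to 231 and grn 1 with 102, while pnr, GATAe and GATAd had none.

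The 12 called ligands shared 10 gaps and 19 peaks. Beside wg and Wnt4, the FGF genes pyr and ths shared a gap with 4 peaks, up to 438, counted for both genes. Wnt6 and Wnt10 had peaks up to 284, where the highest was counted for both. The gene upd1, a ligand of the JAK/STAT pathway, had 1 of 520 and vn, an EGF receptor ligand, 1 of 255. No intergenic peak lay beside dpp, hh, bnl or spi, of which dpp and spi border 0.1 and 0.54 kb only. Of the homeobox genes, ems, a head and trachea regulator, had 8 peaks up to 504, vvl 8, oc 6 up to 304 and Lim1 4 up to 125, while eyg and toe, which share a gap, had 1 of 657. The homeobox genes without a peak included scro, with 314 kb of bordering sequence. Of all 62 gaps with over 50 kb of allowed sequence, 13 held a peak.

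In the zinc finger and nuclear receptor list, esg and kni had 4 peaks each, up to 173 and 341, and disco-r and drm 3 each. Of the axon guidance genes, Sema5c, robo2 and tey had 4 each and NetA, which encodes a netrin, 3. The gustatory receptor gene Gr93a had 9 in the gaps on its 2 sides, of which that towards the scaffold gene CASK was among the densest.

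**Figure D4:**
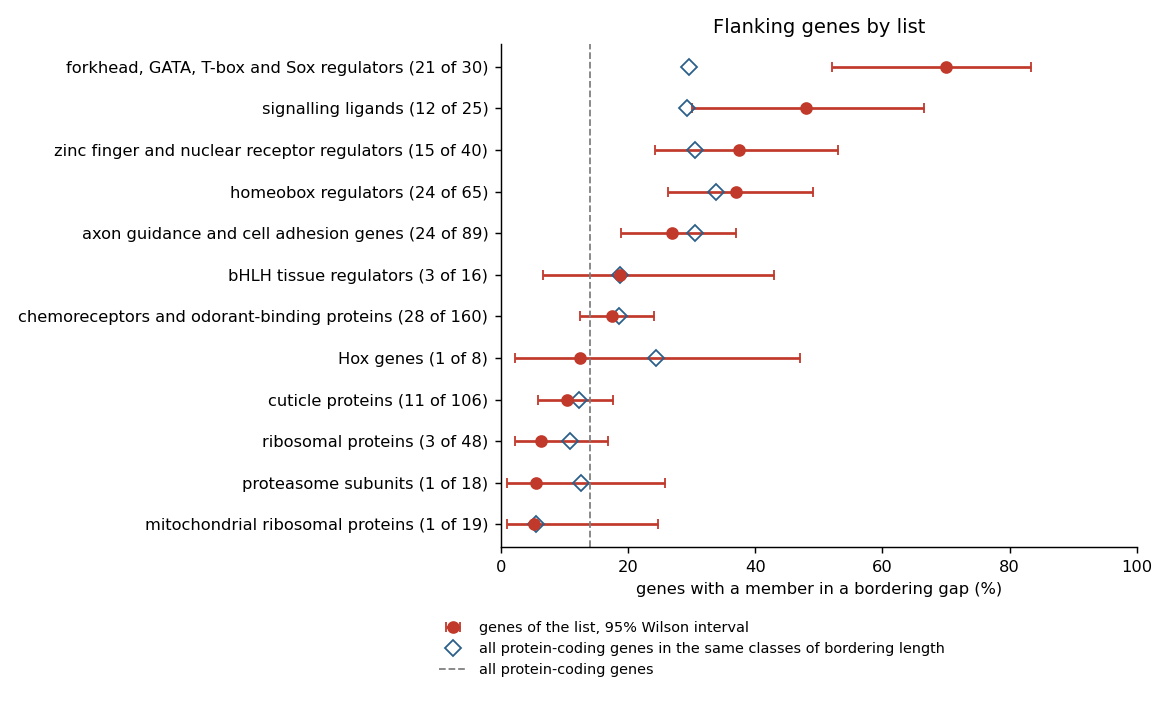
Share of genes with an intergenic peak in a bordering gap (x axis, %) for 12 lists, as points with 95% Wilson intervals. Diamonds give all protein-coding genes in the same classes of bordering length, without matching of transposons, and the dashed line all protein-coding genes (14%). The forkhead, GATA, T-box and Sox list (70.0%, diamond at 29.6%) and the signalling ligands (48.0%, diamond at 29.3%) lie right of their diamonds beyond the interval, which for the ligands did not hold without replicate 3. The lists were chosen with earlier results of these data known. Intervals count genes as independent, although genes of a list can share a gap.

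A promoter peak was found at 210 of the 1095 called genes (19.2%, 95% Wilson interval 17.0 to 21.6%) and 1090 of the 6699 others (16.3%, 15.4 to 17.2%), with intervals that overlap. Within classes of bordering length the shares were 28.8% of called and 18.7% of other genes with up to 2 kb, and 24.4% and 13.8% with 2 to 5 kb. With 5 to 10 kb they were 21.7% and 10.8%, with 10 to 20 kb 16.2% and 7.79%, and beyond 20 kb 8.47% and 5.90%. In the last class the intervals overlapped. Lengths were unlike within the class up to 2 kb, with a median of 1083 bp for called and 253 bp for other genes. A promoter peak of 1 gene can lie next to an intergenic peak of its own gap, and genes of a gap share its peaks.

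Intergenic summits sat on AT-rich sequence. The GC content within 50 bp of the summit had a median of 29.2% (quartiles 24.8 and 34.7%), against 45.5% in the flanks, windows equally wide centred 300 bp away on each side, and 41.6% in the 323277 windows of allowed sequence. Promoter and gene body summits had the same median of 29.7%. The mean GC content was 29.7% within 20 bp of the summit and 45.1% at 200 to 300 bp. The signal value had a median of 178 for the 838 peaks under 30% GC, 178 for the 511 from 30 to 40% and 182 for the 171 over 40%. Soft-masked repeats covered the summit of 25.5% of the intergenic peaks (95% Wilson interval 23.4 to 27.8%) and the centre of 23.3% of the allowed windows.

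The Sox core ACAAT, on either strand, was within 50 bp of the summit in 520 intergenic peaks (34.2%, 95% Wilson interval 31.9 to 36.6%). It was in 34.4% of promoter and 33.6% of gene body peaks, in 23.8% of the flanks of the intergenic peaks and in 26.8% of the allowed windows. In allowed windows weighted to the GC content of the peaks the share was 33.9%, a ratio of 1.01 in place of 1.28. With a window of 100 bp to either side 52.8% of the peaks held it. By GC class, 34.4% of the peaks under 25% GC held it, against 37.9% of such windows, and 39.7% of the peaks from 30 to 35% GC (95% Wilson interval 34.7 to 45.0%), against 33.2%. The longer AACAAT was in 15.2% of peaks and 15.3% of the weighted windows.

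Most other words of the same letters had larger ratios. Of 20 words made of the letters of ACAAT or of its reverse complement, ACAAT ranked 16 by the ratio of peaks to flanks (1.44, where the words ranged from 1.29 to 2.36) and 13 at the GC content of the peaks. The reordered TAACA was in 31.6% of peaks, 16.4% of flanks and 28.3% of weighted windows. The GATA factor word AGATAA was in 8.95% of peaks and 8.56% of weighted windows. The element TATCGATA, bound by DREF at promoters, was in 4 intergenic peaks (0.263%) and in 1.56% of promoter peaks. These words were searched as letters on both strands, TAACA overlaps longer words that hold it, and a match is not shown to be a site.

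**Figure D5:**
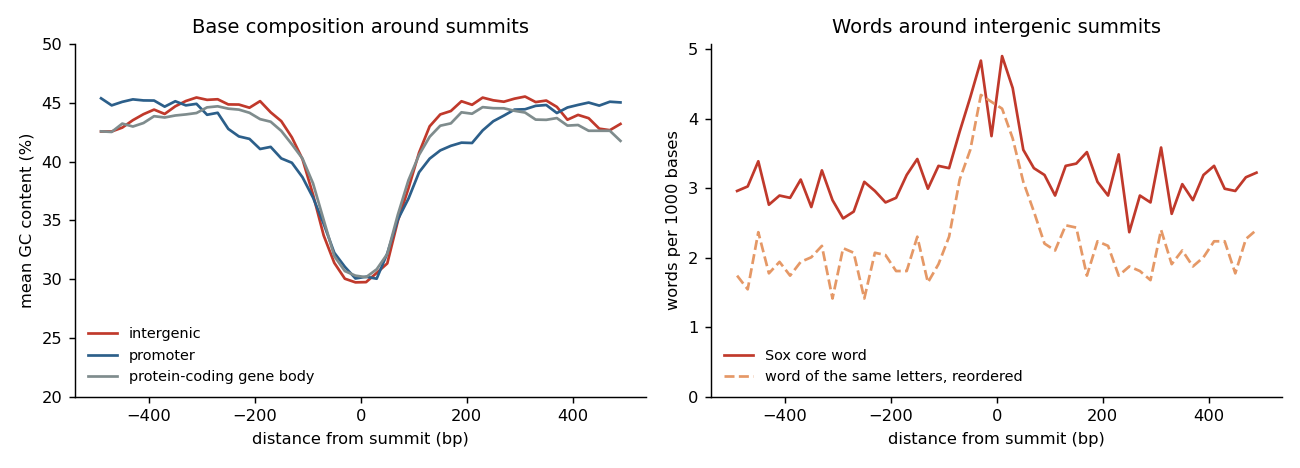
Mean GC content (left, %) around intergenic, promoter and gene body summits and words per 1000 bases around intergenic summits (right), both by distance from the summit in bp. GC content reaches 29.7% at intergenic summits, from 45.1% at 200 to 300 bp, and both the Sox core ACAAT (4.33 within 20 bp, 2.85 at 200 to 300 bp) and the reordered TAACA (4.19 and 1.90) are more frequent there.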

How the data were processed

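Chromatin immunoprecipitation with sequencing was deposited as peak lists on dm6 for replicates 2 and 3 of 1 group, both replicates pooled, and an optimal list. Per the deposited file lists, peaks were called against a shared control file, and the optimal list was made from the others by reproducibility between replicates (IDR). Neither the aligner nor the peak caller is named in the labels. The authors' signal value and −log10 q-value are in the deposited lists as the format defines them, and only the signal was used, within a list. Each replicate and pooled list ended at 30000 peaks. Chromatin was sonicated to 200 to 800 bp, per the labels. The age field holds a value that no embryo can have, so the stage was taken from the source name, and the antibody is given as anti-GFP after the description, where another field has Sox102F. The replicates are biological, per the labels.

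Summits were set against Ensembl release 115 genes and RefSeq dm6 bases, on arms 2L, 2R, 3L, 3R, 4 and X. A gap is a stretch between genes covered by no gene, transposons aside. Allowed sequence is the bases outside every gene and transposon and over 500 bp from every protein-coding TSS. Stretches at arm ends, with a gene on 1 side only, are no gaps, but their bases enter the densities by arm and by distance. Gaps held 31.9 Mb of the 33.1 Mb of allowed sequence and all 1520 peaks, or 0.476 per 10 kb. Of the 1520 peaks, 19 shared an interval with another row, 1 had a summit outside its interval and 76 had an interval that reached into a gene. A peak was found again in a replicate when its summit lay in a peak there. Windows of 50 bp to either side were used for words and GC content, and allowed windows were weighted by GC class to the peaks. Shares have Wilson and densities Poisson intervals at 95%, and no test was made over peaks, which are not replicates. Genes were named for the 15 gaps with most peaks, the 10 densest, the 12 highest peaks, the largest clusters, chromosome 4, the 10 farthest peaks and up to 4 called genes of each list. Further genes of the first 2 lists and of the homeobox list were named after their values were seen, and 1 stretch that the rule names is not reported here. The members and the 12 lists were chosen with earlier results of these data known. The member rule and the word search were checked on simulated data. The work was done in Python 3.11.15 with pandas 2.3.3, numpy 2.4.6 and scipy 1.17.1, and plots in matplotlib 3.10.9.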

Additional observations from a re-analysis of the deposited data

How the results depend on the processing

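Of 103 values under other settings, 74 stayed within 1.5 times a count, within the interval of a share, or within the spread between replicates, and 29 moved. With a replicate left out, the 7488 highest peaks of the other were taken, which fixes the number of peaks by construction. The intergenic share was 20.3% in the main setting. It was 23.9% with 250 bp from every TSS, 18.2% with 1000 bp, 22.9% with protein-coding genes alone as borders and 17.4% above the median signal, and 18.8 to 21.3% with either replicate left out. Intergenic peaks in both replicates were 97.7% above the median signal, 98.0% by at least 1 bp of overlap and 69.4% by 50% reciprocal overlap. This share has no value without a replicate. The density was 0.196 above the median signal, 0.519 at 250 bp, 0.412 when transposons were not counted as genes (added after the data were seen) and 0.425 to 0.481 without a replicate. Gaps with a peak numbered 466 above the median signal, where fewer peaks enter by construction, and 867 to 907 without a replicate. Peaks within 2 kb of another were 21.2% above the median signal and 31.5 to 36.4% without a replicate, 17.6% at 1 kb and 53.3% at 5 kb. The signal ratio to other peaks, 0.838, was 0.866 at 250 bp, 0.855 with protein-coding borders and 0.855 to 0.871 without a replicate. The median distance to a gene was 1484 bp at 250 bp, 2455 bp at 1000 bp, 3440 bp with protein-coding borders, 1791 bp above the median signal and 1898 to 2080 bp without a replicate. The ACAAT share was 52.8% at 100 bp and 32.9 to 33.1% without a replicate. Its ratio to allowed windows was 1.23 without either replicate, from 1.226 to 1.234, 1.01 at the GC content of the peaks and 1.44 against flanks (both added after the data were seen). The called genes over all lists numbered 143 to 154 without a replicate, against 144. Where no construction is named, the cause was not tested. No paired analysis was possible because the study has 1 group. Depth is unknown, so weak or missing peaks set no limit on binding, and sequence where reads are not placed uniquely can lack peaks.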

Other observations

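Intergenic peaks were more numerous below the optimal list. Of the 30000 pooled peaks, 8074 were intergenic (26.9%, 95% Wilson interval 26.4 to 27.4%). Of these, 1520 entered the optimal list (18.8%, 18.0 to 19.7%), while 24.96% of all pooled peaks did. Their share was 25.8% in the second step of 5000 pooled ranks, 28.6% in the fourth and 30.8% in the last. Of the 171 intergenic peaks over 40% GC, 92.4% (87.4 to 95.5%) lay in peaks of both replicates, against 97.7% (96.5 to 98.5%) of the 838 under 30% GC. Their median distance to a gene was 1053 bp, against 2312 bp under 30% GC. These differences were not tested.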
